A study of Mus musculus with 16 samples.

Results

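The comparison described here set 4 kidney samples of mice given cisplatin against 4 of mice given PBS, 8 of the 16 whole-kidney RNA libraries of the series, and covered every gene of the deposited table. The 8 libraries were taken by their treatment labels (PBS, and cisplatin with no other agent), and the other 8 came from mice given the NAD precursors NMN or NR before cisplatin, 4 each. All mice were wild type (WT), and the kidneys were collected 3 days after the cisplatin injection; strain, age, sex and dose are missing from the sources used here. Whether the 4 samples of a group were 4 animals is not stated, so a p-value here stands for the spread among the samples, and that spread may be technical. The values are TPM, transcript abundances corrected for gene length and scaled to 1 total per library, and they keep no read depth. The listed values did not add up to 1 shared total. They summed to 860428 to 887310 TPM in the PBS libraries and to 885513 to 898322 TPM in the cisplatin libraries. Of 23935 gene symbols, 12960 were tested, those that reached 1 TPM in 4 or more of the 16 libraries.

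Cisplatin, a platinum compound used against tumours, crosslinks DNA. It enters the proximal tubule, the stretch of the nephron that takes back most of the filtered sugar, phosphate, amino acids and protein, through organic cation and copper transporters, and it is cleared by the same cells. Proximal tubule cells live on mitochondrial oxidation, chiefly of fatty acids. After injury, surviving tubule cells are known to lose their transporters and to express genes that the healthy tubule hardly makes, among them Havcr1, which encodes the receptor KIM-1 for dying cells, and Lcn2, which encodes a carrier of bacterial iron chelators.

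In all, 7693 of the 12960 tested genes (59.4%) were called different at an adjusted p under 0.05 (limma), 5278 higher with cisplatin (40.7%) and 2415 lower (18.6%), and the 4 values with cisplatin did not overlap the 4 with PBS for 50.8%. Any list of genes has to be read against these shares. Over all genes the log2 change had a median of 0.27 on TPM values and of -0.001 once libraries were rescaled by median-of-ratios, which called 29.2% of genes higher and 28.6% lower. At least 4-fold changes on the log2(TPM + 1) scale were found for 601 genes that rose (4.64%) and 343 that fell (2.65%). The 343 genes held 12.5% ± 0.172 of the listed TPM with PBS and 1.35% ± 0.245 with cisplatin, and the 601 genes held 1.06% ± 0.147 and 10.9% ± 0.637 (SD, n = 4); these shares describe genes that were chosen on the same values. The median of the 343 was 63.8 TPM with PBS, and that of the 601 was 3.06 TPM with PBS and 32.9 TPM with cisplatin. Among the tested genes, 510 stayed under 1 TPM in every PBS library and so passed the filter on low values only through other libraries, and 417 of them were called higher, so counts over the genes that passed are descriptions.

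**Figure D1:**
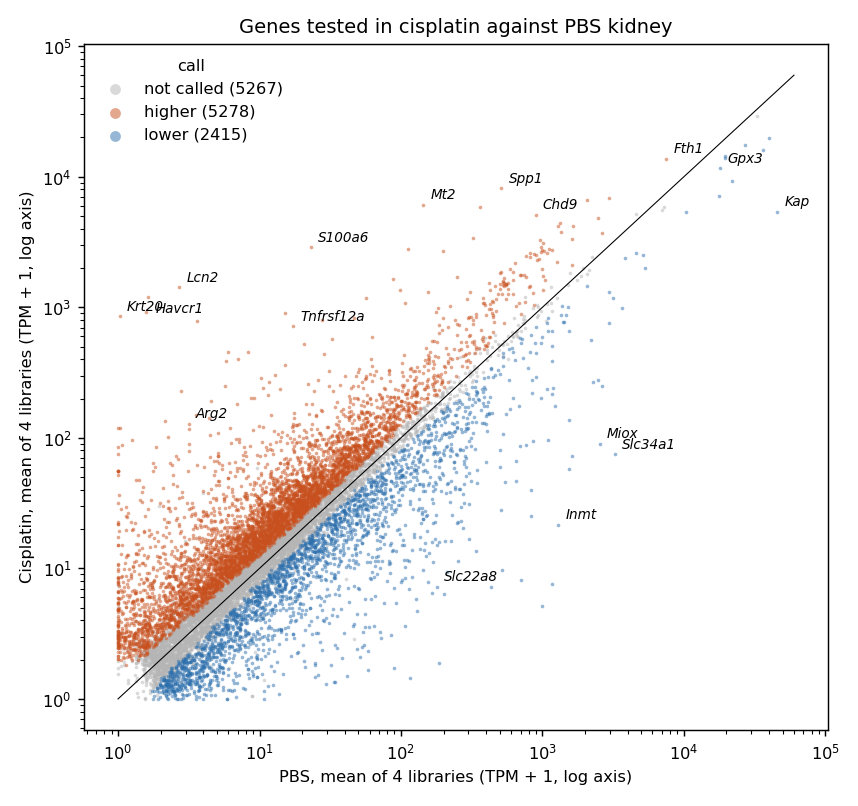
Mean TPM + 1 of each of the 12960 tested genes in the 4 PBS libraries (horizontal, log axis) and in the 4 cisplatin libraries (vertical, log axis), coloured by call; the line marks equal values. The 5278 genes called higher lie above the line, with Krt20, Havcr1 and Lcn2 near the left edge, and the 2415 called lower lie below it, with Slc34a1, Miox and Inmt at the right.

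The libraries within a group were alike for most genes, with a median SD of 0.243 (PBS) and 0.235 (cisplatin) on the log2 scale. Transcripts encoded by mitochondrial DNA made up 25 to 34% of the listed TPM with PBS and 15.6 to 17.6% with cisplatin, and cytosolic ribosomal protein genes 5.64 to 6.88% and 15.5 to 17.5%. Cisplatin library 1 stood apart in markers of glomerular and stromal cells, as described with those cells, and PBS library 1 and cisplatin libraries 1 and 3 had the lowest quality weights of the 16 (0.566, 0.675 and 0.679). Values for single libraries are given in the order of their replicate numbers, which do not pair libraries across groups, and means are given ± SD with n = 4.

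Among the genes that rose most were genes of injured and of stratified epithelium. Krt20, which encodes a keratin of intestinal and urothelial surface cells, measured 0.03, 0.09, 0 and 0 TPM with PBS and 1006, 788, 805 and 813 TPM with cisplatin. Sprr1a, which encodes a crosslinked envelope protein of skin, measured 0.81, 0.88, 0 and 0.59 TPM with PBS and 1049.7, 840.4, 898 and 905 TPM with cisplatin. Tnfrsf12a, which encodes the receptor of the cytokine TWEAK, measured 14.8, 16.1, 20.5 and 13.7 TPM with PBS and 832, 713, 661 and 653 TPM with cisplatin. Each of these genes was higher in every cisplatin library than in any PBS library (log2 change 9.69, SE 0.217, adjusted p = 6.93e-16 for Krt20; log2 change 9.24, SE 0.197, adjusted p = 5.27e-16 for Sprr1a; log2 change 5.38, SE 0.227, adjusted p = 2.49e-12 for Tnfrsf12a). Havcr1 had 1117 to 1256 TPM in the cisplatin libraries and at most 1.61 TPM in the PBS libraries. Predicted genes, pseudogenes (such as Sprr2g) and mitochondrially encoded genes left aside, the 15 largest rises were those of Krt20, Sprr1a, Havcr1, Lcn2, Cdkn1a, S100a6, Crct1, Sprr2f, Fosl1, Saa1, Akr1b8, Psrc1, Fgg, Gsta1 and Gdf15. Of 35 tested markers of tubular injury (37 in the table) 32 rose and 2 fell, with a median log2 change of 3.29. The 2 that fell were Timp2 (13.5 ± 5.55 to 4.87 ± 2.66 TPM) and Igfbp7 (1363 ± 136 to 870.0 ± 79.8 TPM), whose proteins are measured together in urine as a marker of tubular stress. Il18, which encodes an inflammatory cytokine also measured in urine, was at 3.26 ± 0.912 and 3.98 ± 1.21 TPM and was not called (adjusted p = 0.359).

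Keratin genes rose in 7 of 9 tested cases and fell in 1. Krt8 and Krt18, the pair that simple epithelia normally make, went from 61.3 ± 11.1 to 592 ± 23.6 TPM and from 9.65 ± 2.44 to 241 ± 14.4 TPM. Krt19, a keratin of ducts, went from 1.06 ± 1.13 to 40.4 ± 3.81 TPM, so that with cisplatin the mean level of Krt20 was the highest of the 4 keratins named here, above Krt8. Krt80 fell (4.51 ± 1.01 to 2.74 ± 0.564 TPM), a call that was lost without PBS library 2 or 3 or cisplatin library 3 (log2 changes -0.47, -0.49 and -0.45), and Krt10, a keratin of skin, was at 6.25 ± 2.1 and 6.49 ± 3.11 TPM (adjusted p = 0.999).

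Genes of the cornified envelope, the crosslinked shell of skin cells, rose in 15 of 17 tested cases with none lower (25 in the table). Crct1 and Sprr2g were listed at 0 in all PBS libraries and reached 127, 111, 122 and 113 TPM and 105, 56, 59.6 and 76.9 TPM with cisplatin. Sprr2f went from 0.04 ± 0.08 to 117 ± 51.2 TPM. Evpl, the envoplakin gene, was at 5.39 ± 1.15 and 6.42 ± 1.32 TPM and was not called (adjusted p = 0.297). Many of these genes lie in the epidermal differentiation complex, the block on chromosome 3 that also holds most S100 genes. Between S100a1 and S100a11 (GRCm38, chromosome 3, 90511034 to 93526287) the table lists 68 genes, of which 31 passed the filter, 28 rose and 0 fell; 3 were not called. The summed level of the 68 genes averaged 851 TPM with PBS and 8355 TPM with cisplatin, most of it from S100a6 and S100a11. The block was picked after its values were seen, and several of its genes passed the filter only through libraries with cisplatin.

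S100 proteins bind calcium and annexins bind membranes in its presence. Of 23 tested S100 and annexin genes 19 rose and 1 fell. S100a6 measured 12.4, 34, 29.1 and 13 TPM with PBS and 2883, 2475, 3529.6 and 2707 TPM with cisplatin. Anxa2, which encodes the membrane partner of S100a10, measured 16.5, 35, 36.2 and 19.2 TPM with PBS and 855, 747, 817 and 794 TPM with cisplatin, and S100a10 itself 183, 196, 233 and 172 TPM with PBS and 2625, 2568, 2760.1 and 2805 TPM with cisplatin. All 3 were separated without overlap (log2 changes 7.09, 4.94 and 3.78; adjusted p = 9.17e-12, 1.13e-11 and 1.4e-13). S100a11 rose from 321 ± 45.9 to 3417 ± 172 TPM and Anxa3 from 10.4 ± 5.66 to 210.1 ± 16.8 TPM. The member that fell was S100g, which encodes the calcium buffer calbindin D9k of the distal nephron (3164 ± 311 to 1169 ± 207 TPM), while S100a1, at 408 ± 58.2 and 446 ± 3.86 TPM, was not called (adjusted p = 0.247).

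AP-1 is a pair of FOS and JUN family proteins that binds DNA and is made within minutes of growth and stress signals. Of 34 tested AP-1 and immediate early genes 29 rose and 1 fell, with a median log2 change of 2.30. Fosl1, which encodes a FOS family subunit, measured 0, 0, 0 and 0.28 TPM with PBS and 115, 73.4, 81.6 and 80.9 TPM with cisplatin. Dusp5, which encodes a phosphatase of nuclear ERK, went from 0.767 ± 0.314 to 55.2 ± 6.37 TPM, Btg2, which encodes an antiproliferative protein and is also a p53 target, from 5.92 ± 1.82 to 179 ± 18.1 TPM, and Maff, which encodes a small MAF factor, from 0.703 ± 0.558 to 32.4 ± 5.55 TPM. The gene that fell was Klf2, a factor of endothelial cells (21.5 ± 7.56 to 11.2 ± 4.04 TPM). Fosl1 shares 57.2% of its exon bases with Ccdc85b, and the counting is not stated to use strand.

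The AP-1 site (TGANTCA, either strand) was found in 12.4% of 566 promoter windows of genes that rose at least 4-fold, in 4.65% of 344 windows of genes that fell at least 4-fold and in 5.41% of the 12825 windows of all tested genes. A window ran from 250 bases before to 50 bases after a gene's start in RefSeq (GRCm38.p6). The windows belonged to 452 of the 601 genes, 268 of the 343 and 10031 of the 12960. The other genes had no window here and are not covered by any motif share, and 1 gene can have several starts. A match is a description of letters and not a shown binding site. The 200 bases before the start are printed for Sprr1a, at chr3:92485882-92486081 (minus strand), and for the antioxidant gene Srxn1, at chr2:152105324-152105523 (plus strand), because both rose and hold 2 AP-1 matches each. They were chosen after their values were seen. The sequences run 5′ to 3′ towards the start, and capitals mark AP-1 matches, which begin 146 and 116 bases before the start in Sprr1a and 102 and 45 bases before it in Srxn1.
Sprr1a: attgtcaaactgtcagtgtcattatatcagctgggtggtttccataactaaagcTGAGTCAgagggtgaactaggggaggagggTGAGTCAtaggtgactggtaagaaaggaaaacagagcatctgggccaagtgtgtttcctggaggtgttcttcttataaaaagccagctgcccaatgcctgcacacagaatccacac
Srxn1: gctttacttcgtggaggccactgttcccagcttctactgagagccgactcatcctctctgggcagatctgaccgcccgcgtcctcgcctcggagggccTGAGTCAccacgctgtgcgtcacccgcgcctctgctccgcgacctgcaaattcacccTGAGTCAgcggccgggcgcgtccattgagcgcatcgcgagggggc

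Marker genes of the proximal tubule segments fell in all but a few cases. In a whole kidney, fewer cells of a type and less RNA per cell cannot be told apart. Of 25 genes of the first, convoluted segments, all tested, 23 fell and 1 rose, and of 25 genes of the straight segment 23 fell and 0 rose, with median log2 changes of -2.81 and -2.57. Slc22a8, which encodes the organic anion transporter OAT3, measured 161, 203, 178 and 168 TPM with PBS and 6.72, 5.24, 6.49 and 6.52 TPM with cisplatin. Miox, which encodes the oxygenase that breaks down inositol, measured 2163, 3032, 2788 and 2164 TPM with PBS and 86.8, 76.2, 109.7 and 83.3 TPM with cisplatin. Slc7a13, which encodes a cystine carrier of the straight segment, measured 399, 333, 513 and 488 TPM with PBS and 3.28, 6.05, 5.86 and 9.49 TPM with cisplatin. In each of these genes all 4 PBS values lay far above all 4 cisplatin values. Slc5a12, a lactate transporter gene, fell from 57.3 ± 6.37 to 1.34 ± 0.656 TPM, and Mep1b, the gene of a brush border protease, from 105 ± 47.7 to 2.62 ± 0.288 TPM.

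The gene that rose in the list of the first segments was Gc, which encodes the plasma carrier of vitamin D. Gc measured 5.7, 10.4, 5.33 and 7.59 TPM with PBS and 399.7, 489, 442 and 482 TPM with cisplatin, without overlap (log2 change 5.82, SE 0.21, adjusted p = 2.64e-13). Slc7a8 (38.7 ± 4.78 and 35.5 ± 9.68 TPM), Serpina1f (80 ± 38.3 and 94.4 ± 24.7 TPM) and Slc5a1 (18.5 ± 3.67 and 14.5 ± 4.59 TPM) were not called in TPM (adjusted p = 0.439, 0.452 and 0.168), but Slc7a8 and Slc5a1 were called lower after median-of-ratios scaling (log2 changes -0.46 and -0.67). Kap, an androgen-regulated gene of the proximal tubule and the most abundant nuclear transcript of the PBS libraries, lost more TPM than any other gene: it measured 50351, 45936, 44592 and 42424 TPM with PBS and 3965, 6820.5, 4391 and 6344 TPM with cisplatin.

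Organic anion and cation transporters move drugs and waste from blood to urine. Of 29 tested members (32 in the table) 24 fell and 3 rose, with a median log2 change of -2.23. The largest falls were in Slc22a28 (87.7 ± 15.9 to 0.718 ± 0.437 TPM), Slc22a22 (57.7 ± 10 to 0.68 ± 0.443 TPM), Slc22a30 (83.7 ± 7.93 to 2.07 ± 0.759 TPM) and Slc22a8. The 3 that rose were Slco2a1, which encodes a prostaglandin carrier (5.5 ± 1.25 to 35.1 ± 2.65 TPM), Slco4a1 (2.67 ± 0.829 to 13.1 ± 2.37 TPM) and Slc22a21 (1.93 ± 0.423 to 9.05 ± 2.98 TPM). In a list of cisplatin handling, which held the routes of uptake, export and activation, 10 of 24 tested genes rose and 9 fell. Among all tested genes 40.7% rose and 18.6% fell, so the rises were near that share. Slc22a2, which encodes the basal organic cation transporter OCT2 through which cisplatin enters, measured 174, 162, 232 and 196 TPM with PBS and 25.4, 47.4, 32.8 and 46 TPM with cisplatin. Slc47a1, which encodes the apical exporter MATE1, measured 274, 272, 306 and 289.9 TPM with PBS and 73.9, 67.3, 63.2 and 73.8 TPM with cisplatin, and the groups of neither gene overlapped. The copper transporter gene Slc31a1 fell from 47.1 ± 4.85 to 24.6 ± 1.63 TPM. Dpep1 and Ggt1, which encode brush border enzymes that cleave glutathione conjugates, fell from 90.6 ± 9.1 to 4.38 ± 1.59 TPM and from 1078 ± 85.1 to 235 ± 52.8 TPM. The export pump genes Abcc3 and Abcb1b of the ABC family rose, Abcc3 from 0.502 ± 0.447 to 10 ± 3.93 TPM and Abcb1b from 3.14 ± 1.31 to 24.5 ± 4.36 TPM. Gsta1, which encodes a glutathione transferase, rose from 1.16 ± 1.1 to 134 ± 15.3 TPM, and Gclc, which encodes the catalytic subunit of glutathione synthesis, from 68.7 ± 20.2 to 217 ± 61.9 TPM, while the regulatory subunit gene Gclm was at 219.8 ± 41.4 and 242 ± 16.2 TPM (adjusted p = 0.372).

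The core letters of a site of the nuclear receptor HNF4 (CAAAGTCCA, either strand) were found in 2.62% of windows of genes at least 4-fold lower (9 of 344). They were in 0.707% of windows of genes at least 4-fold higher (4 of 566) and in 0.429% of all windows (55 of 12825). These counts are small, and several starts of 1 gene can each count. The 200 bases before the start are printed for the brush border trehalase gene Treh, at chr9:44673033-44673232 (plus strand), which fell and holds 1 such core on the other strand, 71 bases before the start, and for Miox, at chr15:89334273-89334472 (plus strand), which fell and holds 1 D-box (TTATGTAA, either strand), a site of factors of the circadian clock, on the other strand, 58 bases before the start. Capitals mark these matches, and the genes were chosen after their values were seen.
Treh: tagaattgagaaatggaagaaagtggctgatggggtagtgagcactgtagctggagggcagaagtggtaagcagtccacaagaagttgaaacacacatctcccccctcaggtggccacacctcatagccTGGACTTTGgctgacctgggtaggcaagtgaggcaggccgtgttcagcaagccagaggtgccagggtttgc
Miox: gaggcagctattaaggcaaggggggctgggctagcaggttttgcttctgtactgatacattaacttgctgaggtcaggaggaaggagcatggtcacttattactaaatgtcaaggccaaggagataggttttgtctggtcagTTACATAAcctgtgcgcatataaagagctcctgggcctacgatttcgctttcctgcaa

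Hnf4a, which encodes a nuclear receptor that maintains proximal tubule identity, measured 145, 165, 192 and 188 TPM with PBS and 35.3, 50.9, 28.2 and 43.4 TPM with cisplatin. Its groups did not overlap (log2 change -2.12, SE 0.154, adjusted p = 1.57e-09). Of 39 tested nephron transcription factors 15 rose, near the 40.7% of all tested genes, and 13 fell (18.6% of all). Klf15 (47.1 ± 6.85 to 10.3 ± 3.59 TPM) and Maf (33.1 ± 5.6 to 7.95 ± 1.37 TPM), factors of the mature tubule, were among those that fell. Sox9, which marks regenerating tubule cells, measured 0.15, 0.08, 0.08 and 0.17 TPM with PBS and 13.7, 7.53, 11.6 and 6.89 TPM with cisplatin, and no PBS library reached the lowest of the 4 cisplatin libraries. Sox4 rose from 2.86 ± 0.887 to 22.4 ± 5.34 TPM, Runx1 from 0.292 ± 0.333 to 10.2 ± 2.07 TPM and Elf3, a factor of epithelial stress, from 7.76 ± 1.77 to 36.2 ± 1.79 TPM. Of the exon bases of Sox4 54.6% lie opposite Gm26735, and the counting is not stated to use strand. Ppargc1a, the coactivator of mitochondrial biogenesis, fell from 5.5 ± 1.07 to 2.61 ± 0.43 TPM.

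Sugar, phosphate and ion transport genes of the proximal tubule fell in 23 of 32 tested cases and rose in 6. The apical phosphate transporter gene Slc34a3 measured 36.8, 42.2, 27.4 and 43.8 TPM with PBS and 1.98, 0.84, 0.45 and 0.91 TPM with cisplatin. Its relative Slc34a2, the phosphate transporter of lung and intestine, measured 0.17, 0.27, 0.72 and 0.36 TPM with PBS and 9.63, 20.6, 10.1 and 17 TPM with cisplatin. The 2 genes moved in opposite directions, without overlap of the groups. Slc20a1 (18 ± 3.7 to 62.5 ± 6.92 TPM) and Slc20a2 (11.6 ± 2.72 to 26.1 ± 2.13 TPM), which encode widely made phosphate carriers, rose as well. With cisplatin the 3 phosphate transporters that rose were still lower in sum than Slc34a1 had been with PBS (3255 ± 150.4 TPM). The glucose transporter gene Slc2a2 fell from 61.8 ± 9.97 to 11.2 ± 2.27 TPM, and Slc2a1, the widely made glucose transporter gene, rose from 10.4 ± 1.66 to 62.2 ± 6.22 TPM. Car14, a membrane carbonic anhydrase gene, fell from 70.4 ± 9.46 to 2.26 ± 1.27 TPM. Kl, which encodes klotho, the coreceptor of the phosphate hormone FGF23, measured 131, 133, 148 and 183 TPM with PBS and 15, 13.5, 7.72 and 9.6 TPM with cisplatin. Both the enzyme that activates vitamin D and the enzyme that degrades it rose at the mRNA level, Cyp27b1 from 1.93 ± 0.924 to 11.5 ± 4.29 TPM and Cyp24a1 from 19.7 ± 4.36 to 42.3 ± 8.5 TPM.

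Amino acid transporters went both ways, with 13 of 31 tested genes lower and 11 higher, against 18.6% and 40.7% of all tested genes. Beside Slc7a13, the falls included the apical and basal carriers Slc6a20b (87.9 ± 18.3 to 6.08 ± 2.24 TPM, of whose exon bases 21.1% lie opposite Sacm1l), Slc7a7 (86.6 ± 9.22 to 12.9 ± 1.78 TPM) and Slc7a9 (73.4 ± 9.41 to 16.5 ± 4.78 TPM), the latter the cystine carrier gene mutated in cystinuria. Among the rises were Slc7a5, the large neutral amino acid carrier of growing cells (0.733 ± 0.271 to 6.17 ± 0.956 TPM), its partner Slc3a2 (108 ± 7.8 to 218 ± 18.7 TPM) and Slc38a2, the carrier induced by amino acid shortage (11.1 ± 2.17 to 29.1 ± 3.08 TPM). Slc6a18, an apical carrier gene of the proximal tubule, rose too, with 143, 148, 216 and 191 TPM with PBS and 378, 505, 357 and 449.6 TPM with cisplatin. Of all 244 tested solute carrier genes (346 in the table) 61 rose and 112 fell.

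Brush border genes fell in 14 of 21 tested cases and rose in 3. Tmem27, which encodes collectrin, a chaperone of amino acid transporters, fell from 1222 ± 47.2 to 173 ± 6.3 TPM, the trehalase gene Treh from 85.9 ± 10 to 12.6 ± 2.41 TPM and the alkaline phosphatase gene Alpl from 140.0 ± 15.9 to 26.2 ± 9.76 TPM. Ezr, which encodes the linker of microvilli to actin, rose from 109.7 ± 15.3 to 277 ± 30.8 TPM, and so did the microvillar adhesion gene Cdhr2 (11.5 ± 2.77 to 29.8 ± 7.54 TPM); Myo7b rose in TPM (10.4 ± 0.96 to 15.2 ± 1.47 TPM) but was not called after median-of-ratios scaling (log2 change 0.21). In the endocytosis list 5 of 13 tested genes fell and 3 rose. Lrp2 and Cubn, which encode the protein receptors megalin and cubilin, fell from 104 ± 10.7 to 14 ± 1.56 TPM and from 30.1 ± 5.17 to 5.21 ± 1.21 TPM. The adaptor gene Dab2, which acts with megalin, was at 116 ± 15.9 and 117 ± 16.4 TPM (adjusted p = 0.955; called lower after median-of-ratios scaling, log2 change -0.31).

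Cytochrome P450 genes fell in 17 of 35 tested cases and rose in 11. Cyp2e1, which encodes an ethanol-oxidising enzyme, measured 850.0, 844, 679 and 968 TPM with PBS and 36.9, 37.7, 52.3 and 29.7 TPM with cisplatin. Cyp2d26, Cyp4a12a and Cyp2a5 fell from 106 ± 8.91 to 7.45 ± 1.8 TPM, from 33.4 ± 19.7 to 1.59 ± 0.602 TPM and from 106 ± 25.2 to 9.26 ± 1.84 TPM, whereas Cyp4f17 and Cyp2s1 rose from 3.79 ± 0.18 to 26.6 ± 6.64 TPM and from 8.34 ± 1.1 to 36.1 ± 5.93 TPM. Por, which encodes the reductase that serves these enzymes, was at 197 ± 26.1 and 225 ± 16.1 TPM (adjusted p = 0.144). Of 47 tested conjugating enzymes 21 fell and 12 rose. Inmt, an indole methyltransferase gene, measured 1248, 1301, 1288 and 1338 TPM with PBS and 15.2, 18.3, 24.8 and 24.4 TPM with cisplatin. Nat8f6 fell from 186 ± 30.4 to 0.885 ± 0.422 TPM, Ugt2b38 from 514 ± 43.8 to 8.69 ± 1.79 TPM and Ugt3a1 from 199 ± 50.9 to 5.36 ± 2.28 TPM. Most of the 12 that rose were glutathione transferase genes, such as Gsta1, Gstm5 (157 ± 23.9 to 417 ± 16.6 TPM), Gstm1 (448 ± 51.4 to 867 ± 137 TPM) and Gstp1 (452 ± 51.9 to 773 ± 63.4 TPM). Cyp, Ugt, Gst and Nat8 genes have close copies, so that the split of reads among them is uncertain.

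Enzymes by which the kidney makes creatine precursors, arginine and glycine products fell in 29 of 35 tested cases and rose in 4 (median log2 change -1.39). The peroxisomal oxidase gene Hao2 fell from 143 ± 30 to 8.77 ± 2.21 TPM and the hydroxyproline dehydrogenase gene Prodh2 from 75.4 ± 12.5 to 4.47 ± 0.683 TPM. Arg2, which encodes the mitochondrial arginase, went the other way and measured 1.17, 1.78, 3.15 and 2.52 TPM with PBS and 85.5, 143, 119.7 and 161 TPM with cisplatin. Its groups did not overlap (log2 change 5.35, SE 0.283, adjusted p = 3.83e-11), although 20% of its exon bases lie opposite Vti1b. The other 3 that rose were Gldc, of the glycine cleavage system (15.8 ± 4.19 to 38.3 ± 7.93 TPM), the mitochondrial creatine kinase gene Ckmt1 (43.9 ± 7.28 to 87.1 ± 5.16 TPM) and Glud1 (125 ± 28.4 to 189 ± 19.7 TPM), which was not called after median-of-ratios scaling (log2 change 0.30). Dnase1, the gene of the main urinary DNA-cutting enzyme, fell from 827 ± 156 to 24 ± 3.58 TPM.

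Fatty acid oxidation genes fell in 27 of 42 tested cases and rose in 6, beside the fall of the proximal tubule genes, whose part in it was not tested. Acsm2, which encodes a mitochondrial medium-chain acyl-CoA ligase of this segment, measured 1453, 1140.2, 1665 and 2233 TPM with PBS and 68, 74.1, 60.3 and 83.4 TPM with cisplatin. Acsm5, Acsm1 and the racemase gene Amacr fell from 45.2 ± 8.79 to 2.73 ± 0.431 TPM, from 104 ± 3.95 to 10.6 ± 1.5 TPM and from 146 ± 24.4 to 14.7 ± 2.7 TPM. Of the enzymes of the main spiral, Hadha rose (57 ± 5.18 to 91.9 ± 12.2 TPM) while its partner Hadhb was at 98.3 ± 9.78 and 96.3 ± 13.8 TPM and Acadl at 173 ± 21.5 and 158 ± 7.41 TPM (adjusted p = 0.821 and 0.299), both called lower after median-of-ratios scaling (log2 changes -0.35 and -0.44). Acsl4, which activates arachidonic acid, rose from 6.95 ± 0.947 to 35 ± 6.83 TPM. Citric acid cycle genes fell in 25 of 31 tested cases, with Mdh1 from 619 ± 40.1 to 202 ± 23.5 TPM and the pyruvate carboxylase gene Pcx from 159 ± 18.8 to 49.5 ± 4.28 TPM. Within the pyruvate dehydrogenase kinases, Pdk2 fell from 132 ± 19.3 to 27.2 ± 3.48 TPM and Pdk4 rose from 4.42 ± 1.15 to 60.8 ± 7.26 TPM. Of the 13 mRNAs of mitochondrial DNA 10 fell and 13 did after median-of-ratios scaling; ND4 went from 17590.5 ± 2709.7 to 7158 ± 479 TPM and CYTB from 22019 ± 3083 to 9260.3 ± 679 TPM, while COX1 was at 32877 ± 4868 and 29012 ± 2069 TPM (adjusted p = 0.304; log2 change -0.49 after median-of-ratios and 0.57 after quantile scaling, both called). The falls of ATP6, ND1 and COX3 in TPM (log2 changes -0.64, -0.48 and -0.45) changed sign under quantile scaling (0.23, 0.26 and 0.37), where of these only COX3 was called (adjusted p = 0.206, 0.0765 and 0.0123), and the call of ND1 was lost without the 3 libraries of lowest weight (-0.36).

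Glycolysis and gluconeogenesis genes rose in 12 of 30 tested cases, near the 40.7% of all tested genes, and fell in 9 (18.6% of all). Among genes of glucose release, G6pc, glucose-6-phosphatase, measured 119, 129, 119 and 147 TPM with PBS and 2.68, 4.42, 3.49 and 4.26 TPM with cisplatin, and Fbp1 and Pck1 fell from 760.4 ± 71.7 to 86.8 ± 19.6 TPM and from 841 ± 149 to 219.9 ± 57.7 TPM. Khk, the gene of the first enzyme of fructose breakdown, fell from 678 ± 74.5 to 174 ± 43.1 TPM. Fbp2, the muscle form of fructose bisphosphatase, rose from 11.2 ± 1.5 to 80.3 ± 5.89 TPM. Pkm, pyruvate kinase of growing cells, rose from 93.7 ± 14.4 to 205 ± 12.9 TPM, Pfkp, a phosphofructokinase, from 9.7 ± 1.76 to 27.1 ± 4.67 TPM, and the lactate carrier gene Slc16a1 from 3.21 ± 0.56 to 20.2 ± 3.2 TPM.

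**Figure D2:**
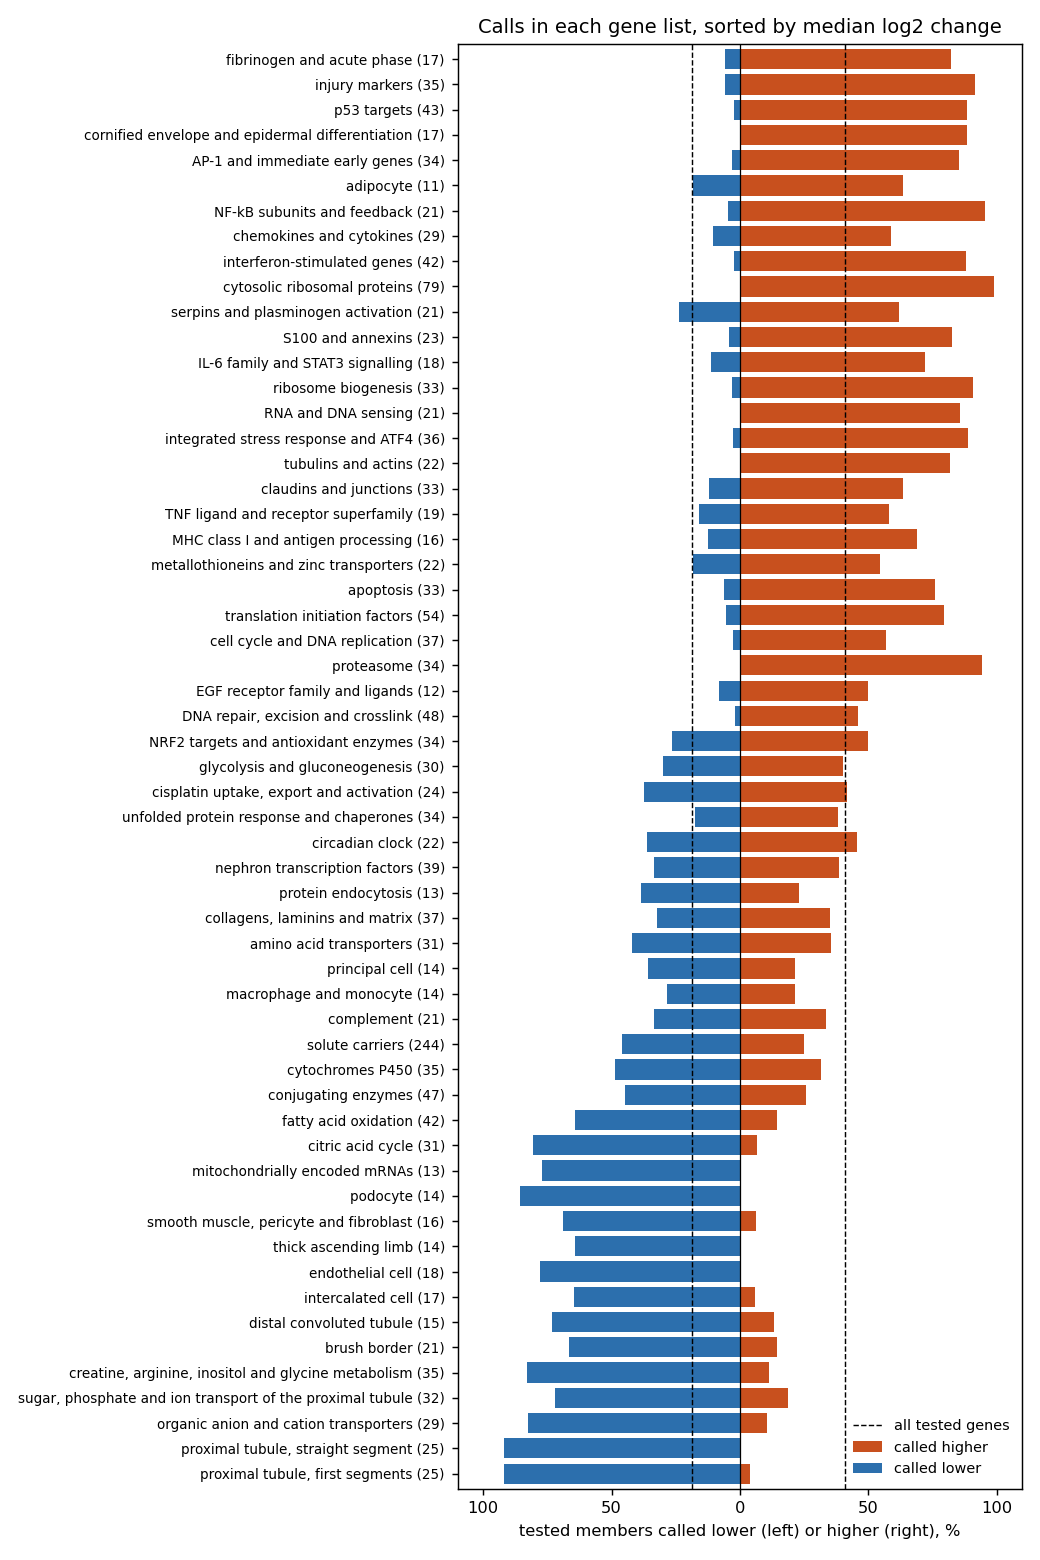
Share of the tested members of each gene list (number tested in brackets, lists of at least 10) called lower (left, blue) or higher (right, orange) with cisplatin, sorted by the median log2 change; dashed lines mark the shares among all tested genes, 40.7% higher and 18.6% lower. Lists of the proximal tubule lie at the bottom with nearly all bars on the left, and injury markers, p53 targets and acute phase genes lie at the top.

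Beyond the proximal tubule, the segments differed in how many genes moved. In the thick ascending limb, which dilutes the urine, 9 of 14 tested genes fell and 0 rose. Egf, the growth factor gene of this limb, measured 159, 122, 229 and 328 TPM with PBS and 6, 10.8, 5.8 and 11.1 TPM with cisplatin, and Cldn10, which encodes its sodium-permeable tight junction protein, measured 125, 123, 149.7 and 151 TPM with PBS and 15.1, 34.2, 11.7 and 23.5 TPM with cisplatin. Both were without overlap. The values are per gene symbol, so isoforms of Cldn10 and the cells that made them were not told apart. Umod, the abundant urinary protein gene of the same limb, measured 354, 344, 595 and 979.5 TPM with PBS and 251, 613, 221 and 517 TPM with cisplatin; its groups overlapped and it was not called (adjusted p = 0.359). Bsnd, which encodes a chloride channel subunit, fell from 20.4 ± 2.23 to 6.21 ± 1.74 TPM and the potassium channel gene Kcnj1 from 50.8 ± 8.78 to 20.8 ± 7.9 TPM.

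In the distal convoluted tubule 11 of 15 tested genes fell and 2 rose (12 and 0 after median-of-ratios scaling). Slc12a3, the thiazide-sensitive cotransporter gene, measured 369.6, 278, 257 and 438 TPM with PBS and 19.4, 12.7, 6.79 and 11.5 TPM with cisplatin. Pvalb, which encodes the calcium buffer parvalbumin of its first part, fell from 24.8 ± 4.49 to 0.527 ± 1.05 TPM, Calb1, a calcium buffer gene of its later part, from 135 ± 20.3 to 16.4 ± 4.2 TPM, and the ubiquitin ligase adaptor gene Klhl3 from 8.84 ± 1.05 to 0.745 ± 0.105 TPM. Wnk4, which encodes the kinase that Klhl3 marks for removal, was at 114 ± 25.9 and 105 ± 23.1 TPM (adjusted p = 0.633). In the connecting tubule 6 of 7 fell, with the kallikrein gene Klk1 going from 3668 ± 629 to 995 ± 246 TPM, and the calcium pump gene Atp2b1 rose from 8.29 ± 2.43 to 16.7 ± 1.2 TPM. Of 17 genes of intercalated cells, which secrete acid or base, 11 fell, such as Insrr, a sensor of alkali (15.6 ± 5.23 to 1.14 ± 0.477 TPM), and Slc4a1 (8.33 ± 5.8 to 0.718 ± 0.473 TPM). Slc4a1 is also listed among the red blood cell genes, and which cells its fall came from was not tested. PBS library 4 held 17 TPM of Slc4a1, with 5.97 TPM in the nearest other library. Car2, the cytosolic carbonic anhydrase gene, rose from 193 ± 30.7 to 269 ± 26.3 TPM, a call that was lost after median-of-ratios scaling (log2 change 0.17) and without the 3 libraries of lowest weight (0.32).

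Principal cell genes were split, with 5 of 14 lower, 3 higher and 6 not called. Aqp2, the gene of the water channel set by vasopressin, measured 145, 181, 192 and 153 TPM with PBS and 333, 405, 413 and 384 TPM with cisplatin, and Fxyd4, a regulator of the sodium pump, measured 38.8, 45.7, 24.5 and 38.9 TPM with PBS and 98.4, 107, 116 and 95.1 TPM with cisplatin. Both were higher in each cisplatin library than in any PBS library. Scnn1g, a subunit gene of the epithelial sodium channel, fell from 17 ± 2.05 to 9.25 ± 1.19 TPM, Hsd11b2, which protects the mineralocorticoid receptor from cortisol, from 131 ± 22.5 to 68.4 ± 8.71 TPM, and the basal water channel gene Aqp3 from 76.1 ± 6.61 to 46.5 ± 8.82 TPM. After median-of-ratios scaling 8 principal cell genes fell. Of 7 tested genes listed for the thin limb (10 in the table) 6 rose and 1 fell, and which cells made these transcripts was not tested. Slc14a2, the urea transporter gene of the inner medulla and descending limb, was at 0.02 ± 0.04 TPM with PBS and measured 11.7, 28.8, 8.06 and 24.5 TPM with cisplatin. Cryab, a small heat shock protein gene, went from 86.5 ± 26.5 to 1634 ± 92 TPM. Aqp1, the constitutive water channel gene of the proximal tubule and descending limb, fell from 323 ± 59.4 to 108 ± 40.4 TPM.

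Tight junctions seal the space between epithelial cells. Of 33 tested claudin and junction genes 21 rose and 4 fell. Cldn4 measured 10.6, 14.5, 9.25 and 8.76 TPM with PBS and 359, 212, 269.7 and 220.4 TPM with cisplatin and Cldn1, a claudin of skin and of the parietal layer of the glomerulus, measured 2.88, 4.52, 4.86 and 3.61 TPM with PBS and 78.7, 63.3, 56.7 and 63.6 TPM with cisplatin. Both claudins were listed far lower in every PBS library. Cldn3 rose from 13 ± 4.69 to 94.4 ± 3.12 TPM, and the gap junction gene Gja1 from 1.08 ± 0.62 to 9.29 ± 2.18 TPM. The claudins that fell were Cldn10, Cldn8 (21.5 ± 5.5 to 8.89 ± 2.19 TPM) and Cldn2, the leaky claudin of the proximal tubule (142 ± 22.2 to 89.9 ± 17.2 TPM), beside the gap junction gene Gjb2 (58.2 ± 7.14 to 29.1 ± 5.07 TPM). All 6 tested genes listed for parietal epithelial cells (7 in the table) rose, among them Cd24a (48.8 ± 8.01 to 247 ± 17.4 TPM), the copper carrier gene Cp (8.05 ± 3.5 to 114 ± 14.5 TPM) and the adhesion gene Vcam1 (3.43 ± 2.11 to 14.1 ± 3.23 TPM). Whole-kidney RNA does not show which cells made these transcripts, and their source was not tested.

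**Figure D3:**
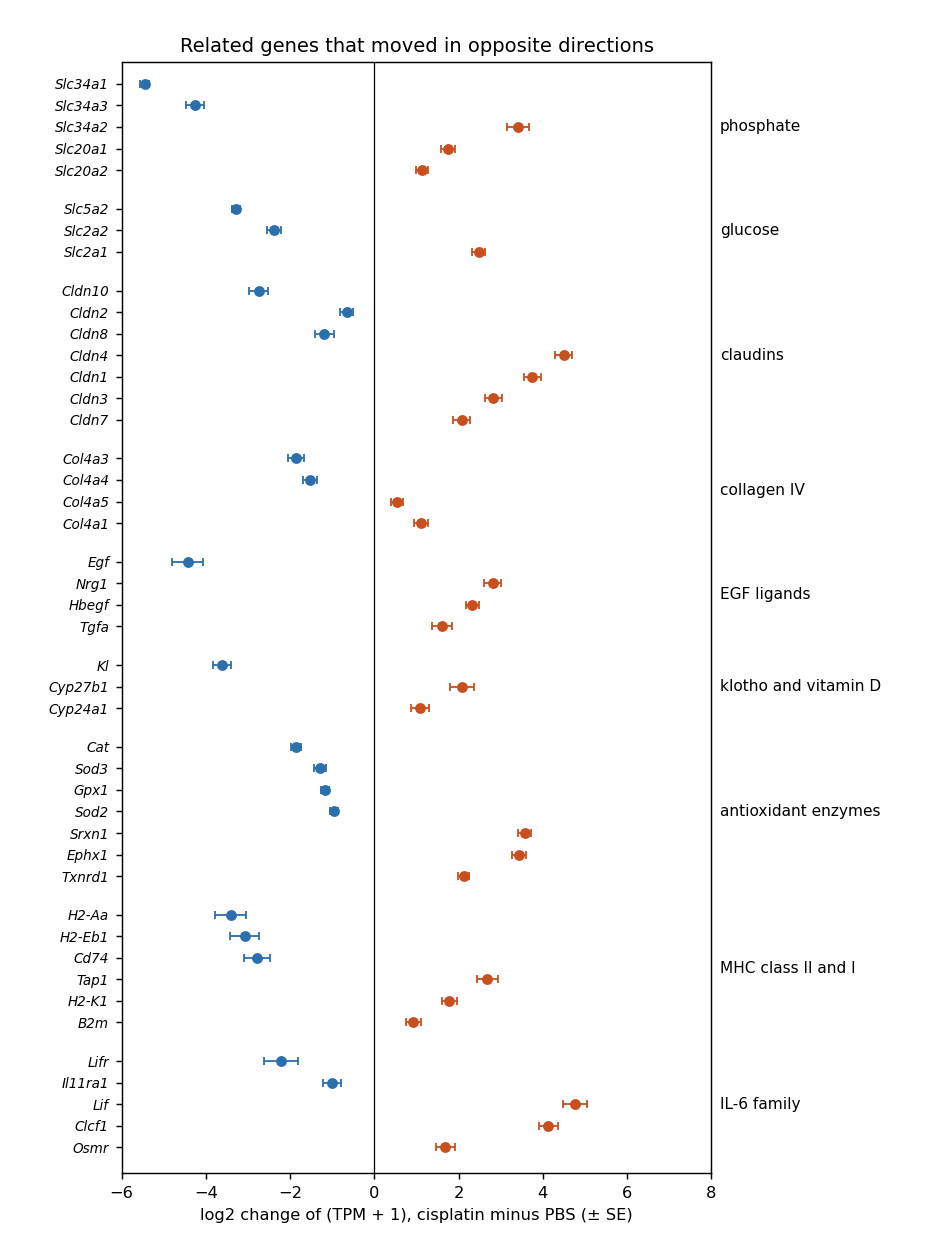
log2 change of (TPM + 1), cisplatin minus PBS, of related genes that were called in opposite directions; points are limma estimates from 4 against 4 libraries and bars are SE. Slc34a1 (-5.46) and Slc34a2 (3.42), Cldn10 (-2.75) and Cldn4 (4.49), and Egf (-4.44) and Nrg1 (2.81) are among the pairs on either side of 0.

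Podocytes are the filter cells of the glomerulus. Of 14 podocyte genes, all tested, 12 fell and 0 rose, among them Podxl, which encodes a surface sialoprotein (42.5 ± 14 to 9.32 ± 9.77 TPM), and Wt1 (6.88 ± 1.84 to 2.38 ± 3.7 TPM). The summed level of the list was 124, 242, 189 and 165 TPM in the PBS libraries and 137, 39.4, 38.6 and 44.7 TPM in the cisplatin libraries. Cisplatin library 1 thus lay far above the other 3 cisplatin libraries, and PBS libraries 2 and 3 above PBS libraries 1 and 4; without cisplatin library 1, 14 podocyte genes fell. Of 18 endothelial genes 14 fell and 0 rose, with Plvap from 72.8 ± 21.5 to 10.4 ± 7.56 TPM, Emcn from 29 ± 9.62 to 5.97 ± 4.69 TPM and Esm1 from 8.62 ± 1.92 to 0.477 ± 0.325 TPM. Their sums were 218, 418, 374 and 239 TPM with PBS and 203, 114, 101 and 104 TPM with cisplatin, again highest in cisplatin library 1, without which 15 fell. Sox17 was at 9.18 ± 1.71 and 10.5 ± 2.96 TPM and was not called (adjusted p = 0.577). Of 16 tested genes of smooth muscle, pericytes and fibroblasts 11 fell, such as Dcn (22.3 ± 12 to 4.97 ± 1.92 TPM) and Rgs5 (18.3 ± 3.9 to 4.32 ± 1.72 TPM), and the pericyte gene Cspg4 rose (6.36 ± 2.03 to 13.7 ± 0.765 TPM).

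The genes of the type IV collagen of the mature glomerular filter fell, Col4a3 from 31.2 ± 2.16 to 8.14 ± 2.52 TPM and Col4a4 from 28.1 ± 2.1 to 9.23 ± 2.33 TPM. Col4a1, a chain of most other basement membranes, rose from 36.9 ± 8.55 to 79.5 ± 7.86 TPM, and Col4a2 was at 28.5 ± 5.73 and 33.9 ± 8.67 TPM (adjusted p = 0.244). The fibrillar collagen genes Col1a2 and Col3a1 fell from 14.4 ± 7.3 to 3.83 ± 2.89 TPM and from 18 ± 12 to 5.33 ± 4.96 TPM, and the call of Col3a1 was lost when only the 8 libraries compared were fitted (log2 change -1.69, adjusted p = 0.0556). Of other basement membrane genes, Lama5 rose from 17.5 ± 5.36 to 92.4 ± 13.5 TPM and Col18a1 from 36.1 ± 5.92 to 254 ± 30 TPM. Spp1, which encodes osteopontin, gained more TPM than any other gene and measured 406, 615, 539 and 485 TPM with PBS and 8046, 8827, 6871 and 8997 TPM with cisplatin. Of 37 tested matrix genes 13 rose and 12 fell, against 40.7% and 18.6% of all tested genes.

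Genes of blood and immune cells did not move as 1 group. The 4 globin genes were among the largest falls, with Hba-a2 at 713, 1456, 1449 and 1019.8 TPM with PBS and 8.28, 4.61, 13.5 and 0 TPM with cisplatin; globin copies are near identical, and 6 of 8 tested red blood cell genes fell. Of 8 tested genes of MHC class II and dendritic cells (11 in the table) 5 fell, with H2-Ab1 at 53.1, 116, 99.1 and 69 TPM with PBS and 22.2, 10.4, 13.9 and 11.9 TPM with cisplatin. The 4 cisplatin values of H2-Ab1 lay below all PBS values, and cisplatin library 1 was the highest of them. Of 14 tested macrophage genes 3 rose and 4 fell: the lysosomal gene Cd68 measured 1.91, 2.8, 6.58 and 2.64 TPM with PBS and 106, 99.2, 93.7 and 119.7 TPM with cisplatin and the endotoxin coreceptor gene Cd14 rose from 1.83 ± 1.21 to 37.6 ± 4.9 TPM, whereas the macrophage growth factor receptor gene Csf1r fell from 17.3 ± 4.61 to 5.15 ± 0.884 TPM and the engulfment receptor gene Mertk from 16.8 ± 4.07 to 5.45 ± 0.938 TPM. Arg1 was the third that rose (0 ± 0 to 1.11 ± 0.615 TPM), a call that was lost without the 3 libraries of lowest weight (log2 change 0.78), and Lyz2 was at 17.4 ± 11.3 and 29 ± 18.2 TPM (adjusted p = 0.217). The table lists 12 neutrophil genes, of which 4 were tested and 0 were called (limma), with none at an unadjusted p under 0.05; S100a8 and S100a9, which neutrophils make in large amounts, were at 2.17 ± 1.55 and 4.11 ± 4.38 TPM and 4.87 ± 3.8 and 7.54 ± 5.12 TPM.

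Adipose genes rose in 7 of 11 tested cases and fell in 2. Cfd, which encodes adipsin, measured 0.08, 47.5, 6.03 and 0.21 TPM with PBS and 101, 64.3, 197 and 79.3 TPM with cisplatin. The groups did not overlap, but the PBS libraries ranged widely, with library 2 far above the others, and the call of Cfd (log2 change 4.46, SE 1.66, adjusted p = 0.0339) was lost when PBS library 1 or 4 or any 1 cisplatin library was left out (log2 changes 3.77 to 4.67). Cidec rose from 1.08 ± 1.6 to 29.1 ± 5.15 TPM and Plin1 from 0.253 ± 0.407 to 5.7 ± 3.36 TPM, genes of fat droplets. The 2 that fell, Lpl (279 ± 54.5 to 30.7 ± 2.55 TPM) and Pck1, are also made by kidney cells. Without cisplatin library 3, 4 adipose genes were called higher, and without the 3 libraries of lowest weight 2 were.

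The tumour suppressor p53 is stabilised by DNA damage and induces genes of cell cycle arrest, repair and death. Of 43 tested p53 targets (45 in the table) 38 rose and 1 fell, with a median log2 change of 2.53. Cdkn1a, the gene of the cell cycle inhibitor p21, measured 1.13, 3.33, 2.68 and 3.23 TPM with PBS and 909.8, 727, 761 and 734 TPM with cisplatin. Mdm2, which encodes the ubiquitin ligase that removes p53, measured 20, 20.4, 21.4 and 19.3 TPM with PBS and 216, 166, 167 and 168 TPM with cisplatin, and Psrc1, a spindle gene, 0.32, 0.43, 0 and 0.29 TPM with PBS and 111, 89.1, 93.7 and 85.3 TPM with cisplatin. None of these genes had overlapping groups. Phlda3, which restrains the kinase AKT, rose from 4.7 ± 1.18 to 250.1 ± 7.39 TPM. Sesn1, a p53 target that restrains growth signalling, was the gene that fell (5.33 ± 1.09 to 3 ± 0.739 TPM), and Rrm2b and Xpc, targets that serve nucleotide supply and damage recognition, were at 6.41 ± 1.98 and 5.81 ± 0.628 TPM and 10.5 ± 1.25 and 11.9 ± 2.22 TPM (adjusted p = 0.739 and 0.343).

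Excision and crosslink repair genes rose in 22 of 48 tested cases and fell in 1 (19 and 4 after median-of-ratios scaling), against 40.7% and 18.6% of all genes. Ercc1, which encodes the partner of the XPF nuclease that cuts platinum crosslinks, measured 7.75, 6.1, 9.1 and 14 TPM with PBS and 309, 263, 373 and 202 TPM with cisplatin, the largest rise of the list. Its gene shares 106 exon bases with Cd3eap on the opposite strand. Polk, the gene of a polymerase that bypasses damage, rose from 2.27 ± 0.475 to 10.6 ± 1.3 TPM, Ercc5 from 6.27 ± 1.49 to 24.2 ± 0.959 TPM and Mad2l2, a subunit gene of another bypass polymerase, from 9.39 ± 0.88 to 38.8 ± 2.67 TPM. The damage kinase gene Atm fell from 1.13 ± 0.404 to 0.472 ± 0.0263 TPM, a call that was lost when PBS library 1 or 4 or any 1 cisplatin library was left out (log2 changes -0.52 to -0.43). Apoptosis genes rose in 25 of 33 tested cases and fell in 2 (18 and 4 after median-of-ratios scaling). Of the killer proteins that p53 induces, Bbc3 (PUMA) rose from 1.32 ± 0.84 to 26.5 ± 1.18 TPM and Pmaip1 (NOXA) from 3.75 ± 1 to 51.1 ± 10.7 TPM. The death receptor gene Tnfrsf10b rose from 1.1 ± 0.318 to 22.7 ± 4.52 TPM and Apaf1, the scaffold gene of the apoptosome, from 0.973 ± 0.498 to 11.3 ± 0.736 TPM. Bid, which links death receptors to mitochondria, fell from 27.9 ± 1.72 to 21.6 ± 2.33 TPM, as did Bmf (1.93 ± 0.478 to 0.905 ± 0.242 TPM), and Cycs, the cytochrome c gene, was at 103 ± 8.15 and 104 ± 5.36 TPM (adjusted p = 0.904; called lower after median-of-ratios scaling, log2 change -0.30).

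Cell cycle and DNA replication genes rose in 21 of 37 tested cases and fell in 1 (46 in the table), against 19 and 5 after median-of-ratios scaling. The rises included brakes as well as drivers: the inhibitor gene Cdkn2b went from 0.547 ± 0.565 to 9.54 ± 2.84 TPM, the replication licensing gene Cdt1 from 2.04 ± 0.763 to 14.7 ± 1.44 TPM and the kinase gene Cdk6 from 1.79 ± 0.202 to 13.7 ± 1.57 TPM. Ccnd2 fell (2.51 ± 0.398 to 0.823 ± 0.331 TPM), and Ccnd3 was at 64 ± 14.9 and 55.1 ± 11.8 TPM (adjusted p = 0.33; called lower after median-of-ratios scaling, log2 change -0.52). The mitotic gene Top2a, named here after its values were seen, was at 0.757 ± 0.356 and 1.21 ± 0.262 TPM and was not called (adjusted p = 0.23).

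The integrated stress response is switched on when translation is slowed by stress kinases, and its factor ATF4 induces genes of amino acid supply. Of 36 tested members 32 rose and 1 fell. Atf3 rose from 2.07 ± 0.768 to 30.8 ± 4 TPM, Ppp1r15a, which encodes the phosphatase subunit that ends the response, from 12 ± 13.7 to 92.5 ± 11.5 TPM, and Gdf15, a stress hormone gene, measured 3.29, 5.05, 6.9 and 3.95 TPM with PBS and 373, 363, 404 and 397 TPM with cisplatin. Phgdh, the first enzyme gene of serine synthesis, rose from 4.15 ± 0.9 to 62.8 ± 6.37 TPM, while Shmt2, which passes serine's carbon to mitochondrial folate, was the gene that fell (141 ± 9.13 to 37.8 ± 3.21 TPM). Of 34 chaperone genes of the endoplasmic reticulum and cytosol 13 rose and 6 fell in TPM, near the 40.7% and 18.6% of all tested genes. When rescaled by median-of-ratios 7 rose and 15 fell, against 29.2% and 28.6% of all tested genes. The small heat shock genes Cryab and Hspb1 (30 ± 15.6 to 321 ± 16.7 TPM) rose most. Herpud1, a degradation gene of the endoplasmic reticulum, fell from 259 ± 51.2 to 81 ± 11.4 TPM, and the chaperone genes Hspa8 and Hspd1 from 1415 ± 292 to 771 ± 26 TPM and from 272 ± 33.3 to 143 ± 4.04 TPM. Calr, at 337 ± 50.8 and 320.2 ± 28.8 TPM, was not called in TPM (adjusted p = 0.607) but was called lower after median-of-ratios scaling (log2 change -0.39).

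Of 34 tested NRF2 targets and antioxidant genes 17 rose and 9 fell. Srxn1, which encodes sulfiredoxin, measured 17.8, 19.2, 21.3 and 25.3 TPM with PBS and 306, 237, 249.5 and 239 TPM with cisplatin, and Akr1b8, an aldose reductase gene, measured 1.97, 1.52, 1.37 and 2.24 TPM with PBS and 281, 184, 229 and 213 TPM with cisplatin. Both lay without overlap above PBS. Ephx1 rose from 25 ± 5.46 to 275 ± 19.2 TPM and the carbonyl reductase gene Cbr3 from 1.27 ± 0.295 to 21.7 ± 5.93 TPM. Some genes of enzymes that remove hydrogen peroxide or superoxide fell. Cat, the catalase gene, measured 347, 371, 478 and 431 TPM with PBS and 113, 119, 92.6 and 120.2 TPM with cisplatin, and Gpx1, Sod2 and Sod3 fell from 2976 ± 257 to 1316 ± 133 TPM, from 308 ± 21.5 to 157 ± 16.2 TPM and from 178 ± 10.3 to 73.6 ± 18.7 TPM. Gpx3, the plasma glutathione peroxidase made by the proximal tubule, fell from 18109.6 ± 2024 to 11671 ± 615 TPM, but that direction was reversed under quantile scaling (log2 change 0.065). Fth1, the heavy ferritin chain gene, rose from 7465 ± 578 to 13795 ± 1142 TPM.

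Metallothioneins bind zinc, copper and platinum. Mt2 measured 97.9, 163, 153 and 159 TPM with PBS and 7555, 4976, 5864 and 5966 TPM with cisplatin and Mt1 measured 287, 412, 364 and 372 TPM with PBS and 6965, 4841, 5889 and 5569 TPM with cisplatin, and both were among the 10 genes that gained the most TPM. Mt2 shares exon bases with the predicted gene Gm45774, and the counting is not stated to use strand. Zinc importer genes went both ways, with Slc39a14 from 13.4 ± 2.56 to 45.7 ± 4.77 TPM and Slc39a6 from 1.53 ± 0.228 to 7.76 ± 1.59 TPM rising, and Slc39a5 from 22.5 ± 1.79 to 2.12 ± 0.611 TPM, Slc39a11 from 14.3 ± 3.59 to 2.13 ± 1.05 TPM and Slc39a8 from 16.1 ± 5.02 to 3.98 ± 1.93 TPM falling. Of 22 tested genes of this list 12 rose and 4 fell (11 and 7 after median-of-ratios scaling). The 200 bases before the start of Mt1 at chr8:94178889-94179088 (plus strand) and of Mt2 at chr8:94172418-94172617 (plus strand) are shown with their metal response element cores (TGCACNC or TGCGCNC, either strand) in capitals, 1 in Mt1 (23 bases before the start) and 2 in Mt2 (128 and 50 bases). These short cores are common: TGCACNC was found in 12.9% of all windows and in 10.8% of windows of genes at least 4-fold higher, and TGCGCNC in 25.5% and 19.8%.
Mt1: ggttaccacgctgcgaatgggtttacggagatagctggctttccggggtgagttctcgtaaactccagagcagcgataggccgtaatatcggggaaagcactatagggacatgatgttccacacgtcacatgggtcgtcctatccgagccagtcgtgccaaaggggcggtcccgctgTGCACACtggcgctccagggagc
Mt2: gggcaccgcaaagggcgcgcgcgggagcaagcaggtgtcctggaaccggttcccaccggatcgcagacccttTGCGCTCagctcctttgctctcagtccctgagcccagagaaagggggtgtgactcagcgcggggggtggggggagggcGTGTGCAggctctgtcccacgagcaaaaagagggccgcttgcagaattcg

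NF-kB is a family of factors that inflammatory receptors free from their inhibitors, and its targets include its own subunits and inhibitors. Of 21 tested members 20 rose and 1 fell. Nfkb2, a subunit gene of the slower arm, measured 4.41, 6.62, 6.95 and 5.87 TPM with PBS and 68.5, 57.2, 55.2 and 49.7 TPM with cisplatin, and Relb, its partner, went from 2.96 ± 1.06 to 26.4 ± 3.95 TPM. The feedback gene Tnfaip3, which encodes A20, rose from 0.887 ± 0.349 to 11.3 ± 2.31 TPM and Nfkbiz from 2.48 ± 0.358 to 20.3 ± 2.61 TPM, and the inhibitor kinase gene Chuk fell from 60.4 ± 5.49 to 44.8 ± 10.3 TPM, a call that was lost without cisplatin library 3 (log2 change -0.31). Of 29 tested chemokine and cytokine genes (42 in the table) 17 rose and 3 fell. Cxcl1, a neutrophil attractant gene, measured 0.25, 2.51, 1.72 and 0.57 TPM with PBS and 107, 92.1, 107 and 96.3 TPM with cisplatin, while Cxcl12, which encodes the ligand that holds lymphocytes and progenitors in tissue, measured 29.1, 72.4, 93.7 and 57 TPM with PBS and 2.06, 2.29, 2.62 and 3.42 TPM with cisplatin. These chemokines moved in opposite directions, each without overlap. Il1rn, the gene of the interleukin-1 antagonist, rose from 0.395 ± 0.286 to 17 ± 5.22 TPM, and Cxcl14 and Il15 fell from 20.1 ± 11.5 to 2.37 ± 1.41 TPM and from 13.3 ± 2.1 to 5.58 ± 0.992 TPM.

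The kappa B site (GGGA, any base, TT, any base and CC, either strand) was found in 2.83% of windows of genes at least 4-fold higher, 2.03% of those at least 4-fold lower and 1.24% of all windows. These shares were 16 of 566, 7 of 344 and 159 of 12825 windows. The neighbouring genes Cxcl1 at chr5:90891045-90891244 (plus strand) and Cxcl2 at chr5:90903699-90903898 (plus strand) are shown with this site in capitals, 71 and 97 bases before the start, and hold the same 10 letters there. The response element of interferon-stimulated genes (TTTC and TTTC with 2 bases of any kind between them, either strand) was found in 3.89% of windows of genes at least 4-fold higher, 4.07% of those at least 4-fold lower and 2.97% of all windows. Isg15, at chr4:156200819-156201018 (minus strand), is shown because it holds 3 such matches on the other strand, which overlap and begin 78, 72 and 66 bases before the start. All 3 genes rose and were chosen after their values were seen.
Cxcl1: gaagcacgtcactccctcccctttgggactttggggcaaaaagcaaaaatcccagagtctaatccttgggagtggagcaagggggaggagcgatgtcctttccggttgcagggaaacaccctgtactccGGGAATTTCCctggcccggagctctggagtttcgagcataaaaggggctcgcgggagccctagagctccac
Cxcl2: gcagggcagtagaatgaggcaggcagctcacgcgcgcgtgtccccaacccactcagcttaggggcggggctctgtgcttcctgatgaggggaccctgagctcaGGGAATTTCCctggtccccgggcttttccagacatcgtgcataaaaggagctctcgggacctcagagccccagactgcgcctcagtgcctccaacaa
Isg15: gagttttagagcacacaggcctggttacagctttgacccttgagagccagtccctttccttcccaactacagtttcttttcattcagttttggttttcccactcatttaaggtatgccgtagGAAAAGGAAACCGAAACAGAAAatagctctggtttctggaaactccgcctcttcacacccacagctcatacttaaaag

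Cytokines of the IL-6 family signal through the shared receptor gp130 to the factor STAT3. Of 18 tested members of this pathway 13 rose and 2 fell. Among ligands, Lif measured 0, 0.12, 0.04 and 0.03 TPM with PBS and 32.4, 23.1, 32.3 and 23 TPM with cisplatin and Clcf1 rose from 2.59 ± 0.983 to 60.9 ± 11.2 TPM. Among receptors, Lifr, through which Lif acts, fell from 34.7 ± 19.1 to 5.95 ± 1.05 TPM and Il11ra1 from 101 ± 26.8 to 49.9 ± 12.6 TPM, Osmr rose from 2.23 ± 1.17 to 9.09 ± 2.42 TPM, and Il6st, the gene of gp130, was at 18 ± 4.24 and 23.2 ± 2.8 TPM (adjusted p = 0.0653; called higher without PBS library 4, log2 change 0.50). The feedback gene Socs3 rose from 2.98 ± 3.81 to 24.1 ± 1.23 TPM, and Stat3 itself from 12.2 ± 3.89 to 38.5 ± 6.3 TPM. In the TNF superfamily 11 of 19 tested genes rose and 3 fell, and the rises were led by receptors: beside Tnfrsf12a they were Tnfrsf23 (0.33 ± 0.257 to 46.9 ± 8.71 TPM) and Eda2r (0.147 ± 0.141 to 18.8 ± 3.83 TPM). Tnfsf10, the gene of the death ligand TRAIL, fell from 7.45 ± 1.98 to 2.17 ± 0.769 TPM, while Tnfrsf10b, the gene of its receptor, rose. Some other ligand genes of the ERBB receptor family rose while Egf fell. Nrg1, a ligand gene of ERBB3 and ERBB4, measured 3.35, 3.7, 1.74 and 3.03 TPM with PBS and 29.1, 24.8, 23.3 and 27.9 TPM with cisplatin, and Hbegf and Tgfa, ligand genes of the EGF receptor, rose from 8.11 ± 0.897 to 44.6 ± 5.32 TPM and from 1.98 ± 1.4 to 7.56 ± 1.4 TPM. Areg was listed at 0 in all PBS libraries and measured 7.12, 7.29, 6.48 and 7.31 TPM with cisplatin. Of the 12 tested genes of this family 6 rose and 1, Egf, fell.

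Of 42 tested interferon-stimulated genes 37 rose and 1 fell, and of 21 tested sensors of RNA and DNA 18 rose and 0 fell. Isg20, an RNA-cutting enzyme gene, rose from 2.1 ± 0.788 to 54.8 ± 9.24 TPM, Oasl1 from 1.26 ± 0.59 to 32 ± 6.67 TPM and Isg15, a ubiquitin-like modifier gene, from 5.76 ± 1.12 to 64.5 ± 15.2 TPM. Samd9l fell (31.6 ± 3.76 to 16.2 ± 3.36 TPM). The sensor kinase gene Ikbke rose from 2.23 ± 1.07 to 10.3 ± 4 TPM, while its relative Tbk1 was at 14 ± 2.19 and 16.7 ± 7.19 TPM (adjusted p = 0.56). MHC class I and antigen processing genes rose in 11 of 16 tested cases and fell in 2. H2-K1 measured 156, 292, 254 and 150.2 TPM with PBS and 804, 612, 646 and 774 TPM with cisplatin, the peptide transporter gene Tap1 rose from 4.64 ± 2.4 to 33.2 ± 5.69 TPM and the immunoproteasome gene Psmb10 from 26.1 ± 6.91 to 81.8 ± 11 TPM. The nonclassical genes H2-Q6 and H2-Q7 fell from 24.6 ± 6.63 to 7.91 ± 5.19 TPM and from 23.7 ± 6.85 to 12.3 ± 5.46 TPM; MHC genes are near copies of each other, and the split of reads is uncertain.

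Complement genes rose in 7 of 21 tested cases and fell in 7. C3, the central component, measured 2.07, 7.75, 3.61 and 3.03 TPM with PBS and 91.1, 108, 106 and 128 TPM with cisplatin, and Clu, the inhibitor and chaperone clusterin, measured 239, 287, 228 and 243 TPM with PBS and 2266, 1380.2, 1602 and 1532 TPM with cisplatin. The inhibitor gene Serping1 fell from 25.4 ± 11 to 7.58 ± 3.89 TPM, and Cfb, of the alternative pathway, from 225 ± 28.4 to 108 ± 9.82 TPM. Cfb shares 79.5% of its exon bases with Gm20547 on the same strand, so how its reads were counted is uncertain. Acute phase genes, usually made by liver, rose in 14 of 17 tested cases and fell in 1 (median log2 change 3.76). The 3 fibrinogen chain genes rose together: Fgg measured 4.85, 5.31, 5.62 and 4.34 TPM with PBS and 277, 602, 345 and 589 TPM with cisplatin, Fga 5.04, 4.65, 7.67 and 6.68 TPM with PBS and 266, 556, 274 and 519.7 TPM with cisplatin and Fgb 0.25, 0.27, 0.22 and 0.32 TPM with PBS and 13.6, 22.6, 18.3 and 19.9 TPM with cisplatin. Alb, the albumin gene and the most abundant of liver, fell from 3.54 ± 0.673 to 0.725 ± 0.756 TPM. Saa1 was listed at 0 in all PBS libraries and measured 52.7, 117, 91.4 and 75.7 TPM with cisplatin. Of 21 tested serpins and plasminogen activation genes 13 rose and 5 fell. The plasminogen activator gene Plat measured 10.4, 30.1, 19.7 and 18.5 TPM with PBS and 686, 387, 585 and 431 TPM with cisplatin, and the urokinase receptor gene Plaur rose from 2.17 ± 0.73 to 116 ± 17.5 TPM. Serpinf2, which encodes the inhibitor of plasmin, fell from 229.7 ± 46.9 to 24.5 ± 5.44 TPM.

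Lists of protein synthesis and turnover genes differed, and they are read against 40.7% higher and 18.6% lower among all tested genes. After median-of-ratios scaling these shares were 29.2% and 28.6%. Of 79 tested cytosolic ribosomal protein genes (81 in the table) 78 rose and 0 fell, and median-of-ratios scaling gave the same counts. Rplp1 went from 2052 ± 256 to 6677 ± 797 TPM, Rpl41 from 1339.6 ± 233 to 4447 ± 1058 TPM, Rps27 from 2943 ± 214 to 6899 ± 446 TPM and Rpl38 from 1298 ± 237 to 4205 ± 559.8 TPM, and all were among the 10 largest gains in TPM. The share of these genes moved with the treatment in all 8 libraries. Of 33 tested ribosome biogenesis genes 30 rose and 1 fell: the nucleolar genes Nop58 and Nop56 rose from 8.82 ± 2.75 to 47.8 ± 7.14 TPM and from 21.2 ± 3.81 to 90.5 ± 12.6 TPM, while Utp20 fell from 24 ± 5.49 to 14.1 ± 1.58 TPM. Of 54 tested translation initiation factor genes 43 rose and 3 fell (32 and 6 after median-of-ratios scaling). Mitochondrial ribosomal protein genes rose in 38 of 78 cases and fell in 7 (17 and 20 after that scaling), and autophagy and lysosome genes rose in 18 of 41 and fell in 10 (11 and 18). Proteasome genes rose in 32 of 34 cases and fell in 0, or 22 and 1 when rescaled by median-of-ratios. The proteasome activator gene Psme2, which interferon also induces, rose from 56.3 ± 13.4 to 210.1 ± 109 TPM, and Psma4, a core subunit gene, was at 170.2 ± 17.9 and 171 ± 7.02 TPM (adjusted p = 0.922; called lower after median-of-ratios scaling, log2 change -0.31).

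Of 22 tested tubulin and actin genes, chosen here by symbol, 18 rose and 0 fell (17 and 2 after median-of-ratios scaling). Tubb6 rose from 5.18 ± 1.86 to 117 ± 13.1 TPM, Tuba1c from 47 ± 6.74 to 296 ± 12.1 TPM and the cytoplasmic actin gene Actg1 from 446 ± 61.3 to 1098 ± 67 TPM. Hmga1, a chromatin gene of growing cells named after its values were seen, measured 10.4, 14.3, 15.3 and 16.4 TPM with PBS and 1090.1, 819, 915 and 790.4 TPM with cisplatin, without overlap. Chd9, a chromatin remodeller gene, was among the 10 largest gains and measured 764, 1194, 893 and 721 TPM with PBS and 4564, 5306, 4637 and 6012 TPM with cisplatin. This level is unusually high for Chd9, and it could not be checked, since the annotation and gene lengths behind the values are missing from the sources used here.

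Clock genes were split: 10 of 22 tested genes rose and 8 fell, against 40.7% and 18.6% of all tested genes. Dbp, an output gene of the clock, measured 118, 195, 185 and 168 TPM with PBS and 20.2, 22.5, 17.7 and 24.2 TPM with cisplatin. Its relatives Hlf and Tef fell from 27.3 ± 6.76 to 3 ± 0.957 TPM and from 124 ± 20.3 to 42.3 ± 8.32 TPM, and Nr1d2, a repressor gene, from 37.8 ± 5.71 to 12.8 ± 1.15 TPM. Nfil3, whose protein binds the D-box that Dbp also binds, rose from 1.51 ± 0.852 to 13.6 ± 2.62 TPM, and Cry1 rose from 1.08 ± 0.306 to 5.13 ± 0.777 TPM. Per1 rose from 18.5 ± 2.97 to 38.5 ± 4.43 TPM, and the hour of collection is not stated. The D-box letters (TTATGTAA) were found in 0 of 566 windows of genes at least 4-fold higher. They were in 2.91% of windows of genes at least 4-fold lower (10 of 344) and in 0.546% of all windows (70 of 12825).

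**Figure D4:**
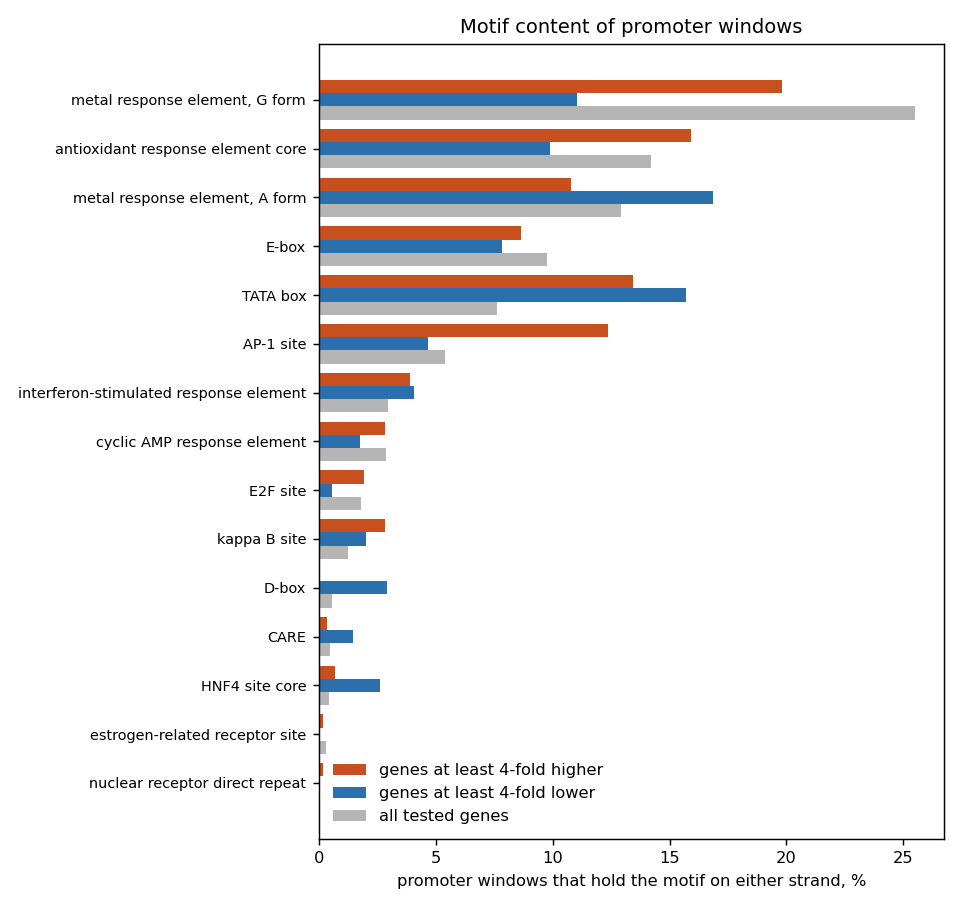
Share of promoter windows (250 bases before to 50 after each RefSeq start) that hold each motif on either strand, for genes at least 4-fold higher (566 windows, orange), at least 4-fold lower (344 windows, blue) and all tested genes (12825 windows, grey). Genes without a window are left out. The AP-1 site is at 12.4%, 4.65% and 5.41% and the HNF4 core at 0.707%, 2.62% and 0.429%; the bars are descriptions with no test.

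The windows also differed in base composition. The median GC content was 59.3% in windows of genes at least 4-fold higher, 53% in those at least 4-fold lower and 60.3% over all windows, and the median number of CG dinucleotides was 15, 6 and 20. The TATA box (TATAAA) was in 13.4%, 15.7% and 7.62%, and the GC box (GGGCGG) in 56.4%, 34.6% and 60.8%, in the same order. The antioxidant response core (TGACNNNGC) was in 15.9%, 9.88% and 14.2%. The D-box is rich in A and T, and the part of base composition in these shares was not tested.

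**Figure D5:**
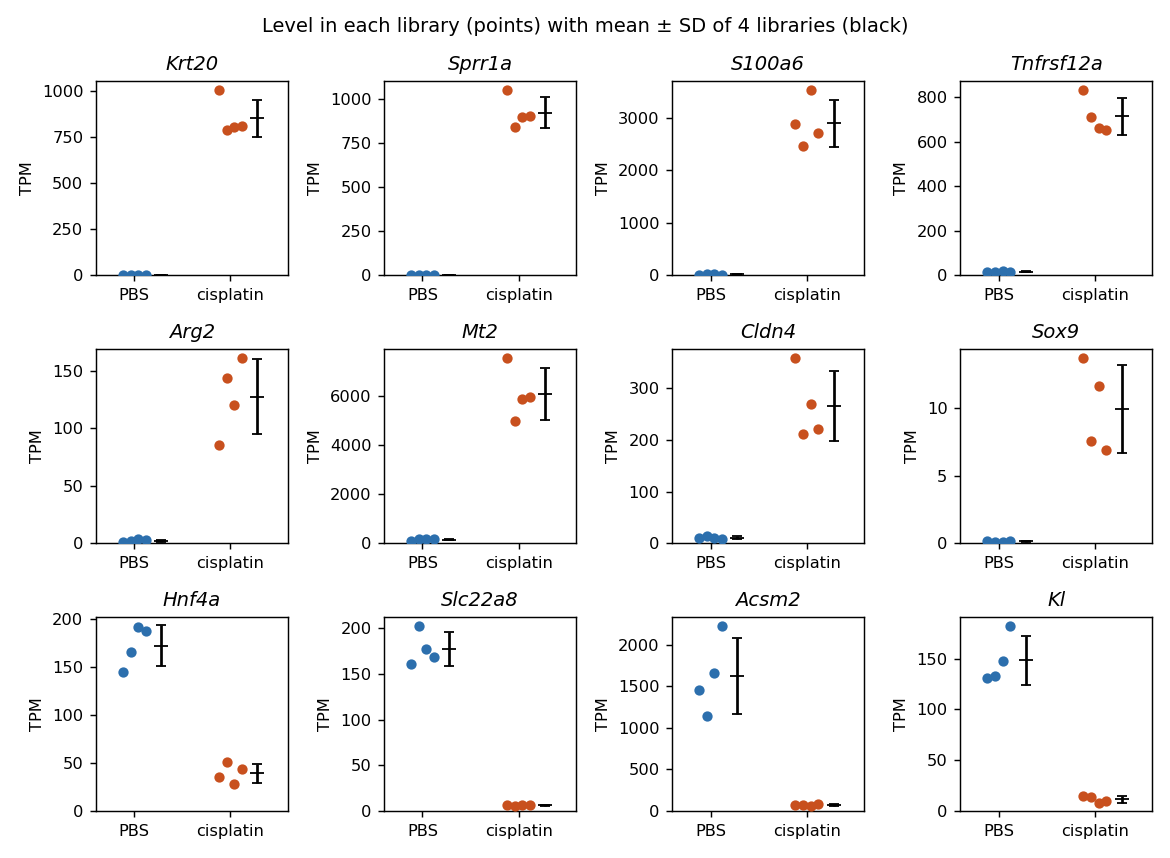
TPM of 12 genes in each of the 4 PBS libraries (blue) and 4 cisplatin libraries (orange), with mean ± SD in black; each axis starts at 0. The 2 groups do not overlap in any of the 12 panels, with Krt20, Sprr1a, S100a6, Tnfrsf12a, Arg2, Mt2, Cldn4 and Sox9 higher and Hnf4a, Slc22a8, Acsm2 and Kl lower with cisplatin.

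The levels of a few members in the mice that were given a NAD precursor before cisplatin are set beside these values without a test, since those libraries share their cisplatin and PBS controls with the comparison above. Krt20 averaged 137 ± 54.5 TPM with NMN and 162 ± 27.6 TPM with NR, Tnfrsf12a 175 ± 70.8 and 202 ± 39.1 TPM, and Arg2 20.1 ± 8.94 and 18.6 ± 4.98 TPM. Acsm2 averaged 1137 ± 339 and 1018 ± 345 TPM, Hnf4a 139 ± 19.3 and 136 ± 12.2 TPM and Kl 111 ± 30.7 and 101 ± 22.7 TPM. All 6 pairs of means lay between those of the PBS and the cisplatin groups. These 6 genes were chosen with their PBS and cisplatin values known. The share of all tested genes with such means was not counted, so the values describe these genes only.

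Of the genes of chromosomes X and Y, Xist was listed at or near 0 in all 8 libraries and Ddx3y was at 13.3 ± 2.21 and 10.5 ± 1.88 TPM (adjusted p = 0.0729; called lower without PBS library 4, without cisplatin library 1 and after median-of-ratios scaling, log2 changes -0.43, -0.40 and -0.61). Nampt, the salvage enzyme gene of NAD synthesis, was at 28 ± 4.24 and 32.3 ± 5.71 TPM and was not called (adjusted p = 0.31). In GRCm38, Krt20 lies on chromosome 11 from 99428403 to 99438150, Sprr1a on chromosome 3 from 92483952 to 92485895, Tnfrsf12a on chromosome 17 from 23675445 to 23677468, Arg2 on chromosome 12 from 79130777 to 79156301, Gc on chromosome 5 from 89417522 to 89457898, Hnf4a on chromosome 2 from 163506808 to 163572910, Kl on chromosome 5 from 150952607 to 150993817 and Ercc1 on chromosome 7 from 19344778 to 19356524.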

How the data were processed

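RNA of whole mouse kidney was measured by sequencing in 16 samples, 4 groups of 4, grouped by their titles. The authors' deposited table gives TPM to 2 decimals for 23982 entries, which were summed to 23935 symbols; 5699 symbols were listed at 0 in every library, and 26 identifiers read as calendar dates. The submitters' processing notes name DESeq2 1.10.1, HTSeq 0.6.1, STAR 2.4.1d and Trim Galore, and the builds mm10 and GRCm38, without saying what each did; annotation, gene lengths and strand setting are missing from the sources used here. TPM fixes the total of each library, so a fall of abundant transcripts lifts the others, and the depth per sample is unknown, so no counting interval is given. The listed values did not sum to the same total in every library.

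The 12960 genes that reached 1 TPM in 4 or more libraries were fitted as log2(TPM + 1) in 1 limma model of 4 group means (limma 3.58.1, statmod 1.5.0, R 4.3.3; 12 residual degrees of freedom; empirical Bayes with trend and robust). P-values are two-sided and were adjusted by Benjamini-Hochberg over the 12960 genes, a call is an adjusted p under 0.05, and rose and fell refer to calls. A fold change on this scale understates the change of low genes. On simulated data with 200 changed genes of 12960, the fit recovered 29% of 1.5-fold, 82.5% of 2-fold and 99% of 4-fold changes. False calls numbered 1, 7 and 9. The changed genes were drawn only from genes of higher PBS level, and all others were left unchanged. The rates therefore do not cover low genes, or a comparison in which most genes were called. The numbers of PBS and cisplatin samples did not pair them.

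The gene lists (78, and 18 families by symbol) and the genes were chosen with earlier results of these data known. The rule for genes to name took the 15 largest rises and falls and the 10 largest gains and losses in TPM among calls, up to 8 called members of each list (at least 5 TPM in the higher group), the members that moved against their list and up to 2 uncalled ones, and a fixed set of 11; not every gene it allows is reported here. Lists are given as counts and medians with no test of the list. Positions are from GENCODE vM21, in which 97.6% of the tested symbols matched 1 gene. Promoter windows are from RefSeq (GRCm38.p6), and 17 motifs were searched. Alternatives were quantile scaling, median-of-ratios scaling, limma with neither trend nor robust, leaving out the mitochondrially encoded genes, 0.1 as the pseudocount, a TPM minimum of 5 or of none, only the 8 libraries compared, array weights, a replicate block, each library left out, and, chosen after seeing the data, the 3 libraries of lowest weight left out. Figures were drawn with matplotlib 3.10.9 (Python 3.11.15, pandas 2.3.3, numpy 2.4.6).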

Additional observations from a re-analysis of the deposited data

Results flagged for a closer look

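In 51 of 653 groups of 4 libraries examined (the genes named above with a group mean of at least 5 TPM, and the summed TPM of the lists), the highest or lowest library lay farther from the next than Dixon's 95% critical ratio for 4 values allows. Chance gives this in about 1 in 20 groups, so a share of these is expected from chance alone, and all are given as values in TPM with the nearest other library after them.

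Cisplatin library 1 held 137 TPM of podocyte genes (nearest 44.7), 203 of endothelial genes (114), 119 of smooth muscle, pericyte and fibroblast genes (78.6) and 131 of MHC class II and dendritic cell genes (70.8). Of single genes of these cells it held 23.9 of Podxl (5.23), 21.7 of Plvap (7.4) and 13 of Emcn (3.86). In the same library the sums were 1559 for apoptosis genes (1430.1), 2061 for AP-1 and immediate early genes (1765) and 328 for the EGF receptor family (283). It was also the highest of its group for Krt20 at 1006 (813), Igfbp7 at 989 (843), Car2 at 308 (259), Mdm2 at 216 (168), Tubb6 at 137 (111), Slc2a1 at 71.5 (60.1), Cyp24a1 at 54.9 (39.1), Stat3 at 47.9 (36.3), Tnfaip3 at 14.8 (10.3) and Polk at 12.6 (10.1), and the lowest for Gstm1 at 663 (912).

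In the other cisplatin libraries, library 2 held 373 of Psme2 (173) and 5.24 of Slc22a8 (6.49). Library 3 held 29.8 of Tef (45.4), 33.1 of Shmt2 (39), 6.06 of Sox17 (11.8), 5.74 of Col4a4 (10.2) and 1209 of cytochrome P450 genes (1346). Library 4 held 157 of Gsta1 (128) and 42.8 of Mad2l2 (37.8).

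PBS library 1 was the lowest of its group for Igfbp7 at 1160 (1415), Rps27 at 2624 (3017), Pdk2 at 103 (138), Mt2 at 97.9 (153), Samd9l at 26 (33.2) and Cyp2s1 at 6.7 (8.81). It was also the lowest for the sums of p53 targets at 1244 (1389), metallothionein and zinc transporter genes at 682 (867), the TNF superfamily at 201 (249), the IL-6 family at 191 (256) and NF-kB genes at 188 (235). PBS library 2 held 47.5 of Cfd (6.03), 13.3 of Krt18 (8.75), 8451 of connecting tubule genes (6776) and 5122 of serpin and plasminogen genes (4068). PBS library 3 held 32.6 of Ppp1r15a (6.24) and 9.4 of Cspg4 (5.52). PBS library 4 held 187 of Pcx (152), 29.7 of Cldn8 (19.7), 23.7 of Bsnd (19.8) and 17 of Slc4a1 (5.97).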

How the results depend on the processing

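Over the alternatives run, the number of genes called lay between 6302 and 8179 (7693 in TPM), with 7197 to 7520 when 1 library was left out. The number called lower went from 2415 to 3709 with median-of-ratios and 3700 with quantile scaling. Among named genes called in TPM, 4 log2 changes were reversed under quantile scaling: ATP6 at 0.23, ND1 at 0.26, COX3 at 0.37 and Gpx3 at 0.065. COX1, which was not called in TPM, was called higher there at 0.57. Among lists, principal cell genes called lower went from 5 to 8, 9 and 3 with median-of-ratios scaling, with quantile scaling and without the 3 libraries of lowest weight. Adipocyte genes called higher went from 7 to 2 without those 3 libraries and to 4 to 7 when 1 library was left out. Chaperone genes called higher went from 13 to 7 with median-of-ratios scaling, 7 with the mitochondrially encoded genes removed and 8 without the 3 libraries. With a minimum of 5 TPM, which tests fewer genes, cornified envelope genes called higher went from 15 to 8, cell cycle genes from 21 to 12, sensing genes from 18 to 11 and clock genes from 10 to 6. Removal of the mitochondrially encoded genes left 0 of these to call. The cause of the other changes was not tested. Replicate numbers are shared between groups, but same-numbered PBS and cisplatin libraries did not deviate together (correlations -0.13 to 0.026). The fit with a replicate block called 7839 genes, 5343 higher and 2496 lower, and no library of cisplatin correlated above 0.1 with the PBS library of its own number. Depth is unknown in TPM, so low genes carry an error that cannot be stated.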
